A study of Mus musculus with 3 samples.

Results

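Sites where thyroid hormone receptor alpha (TRα) and the retinoid X receptor (RXR) were found together, with no called peak of thyroid hormone receptor beta (TRβ), were described in mouse C17.2 cells. A site was a TRα peak on chromosomes 1 to 19 that shared at least 1 bp with an RXR peak and no base with any TRβ peak. Of 6902 TRα peaks on these chromosomes, 1984 met this rule, or 28.7% (95% Wilson interval 27.7 to 29.8), out of 7174 TRα peaks in the whole list. A further 27 TRα peaks on chromosomes X and Y met the same overlap rule and were not counted. The remaining TRα peaks on chromosomes 1 to 19 comprised 1261 sites of all 3 lists, 3392 TRα peaks with neither partner and 265 with TRβ but not RXR.

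C17.2 is an immortalized mouse neural progenitor line. Line C17.2a stably expressed TRα and line C17.2b stably expressed TRβ, each receptor carrying a protein G tag by which its chromatin was pulled down on IgG beads (chromatin affinity purification followed by sequencing). RXR came from C17.2a, the line with tagged TRα, by ChIP-seq with an antibody against all RXR forms (pan-RXR) on protein A beads. Protein G binds immunoglobulins, and whether the RXR antibody also recovered tagged TRα directly was not tested. All cells were untreated and had been in serum-free medium for 24 h, so the 3 libraries share the absence of added hormone. Culture with 12% fetal bovine serum is also recorded for all 3 libraries. The promoter of the transgenes and the number of clones are not given in the sources used here. There was 1 library per group. The TRβ library differed from the TRα library in receptor, cell line and library at once, and these cannot be told apart.

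TRα and TRβ are nuclear receptors for thyroid hormone, encoded by separate genes. Both bind DNA mainly as heterodimers with RXR at hormone response elements built from repeats of AGGTCA, and both can occupy these elements without hormone, when they recruit corepressors. In neural tissue TRα is the more widely expressed receptor, and thyroid hormone is known for its role in neural progenitor differentiation and myelination. RXR also pairs with other nuclear receptors, among them the retinoic acid and vitamin D receptors, so an RXR peak is not by itself a sign of a thyroid hormone receptor.

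The libraries held 19786966 (TRα), 16556350 (TRβ) and 16033622 (RXR) unique tags. Unique tags were 97.7% of all tags for TRα, 83.4% for TRβ and 96.3% for RXR. Whether the lower share in the TRβ library affected its peak calls was not tested. A peak is listed with its tags (sequence reads counted inside it), with a score, the p-value of the peak caller MACS on a log scale (-10 times its log10), and with a fold enrichment over the regional background. Scores and folds were computed by the authors. The fewest tags in a peak on chromosomes 1 to 19 were 10 for TRα, 10 for RXR and 6 for TRβ, and TRβ peaks were narrow, at a median of 168 bp, where TRα peaks had a median of 559 bp. "Without TRβ" therefore means that no TRβ peak was called, since the lists give no tags outside peaks. The sites were chosen by the peak calls of all 3 lists, which are themselves measured values. Tags, scores, folds and distances are given as descriptions, and with 1 library per group no difference between classes could be tested. Intervals are 95% Wilson intervals for shares and exact order-statistic intervals for medians. They cover counting over sites only, and sites of 1 library are not replicates.

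TRα signal at the sites was moderate. The sites held a median of 26 TRα tags (interval 26 to 27), with quartiles of 20 and 35 and a range from 10 to 541. Their median TRα score was 67.4 (65.8 to 69.2) and their median fold 8.39 (8.26 to 8.56). These values lay between those of the neighbouring classes. Sites of all 3 lists had medians of 39 TRα tags (37 to 41), a score of 107.8 (102.5 to 112.5) and a fold of 10.6 (10.4 to 10.8). TRα peaks with neither partner had medians of 16 tags (15 to 16), a score of 45.3 (45.04 to 45.6) and a fold of 6.81 (6.74 to 6.85). The sites were a median of 622 bp wide (612 to 631), and 5 of them were wider than 1500 bp.

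RXR signal was of similar size in tags not scaled for library depth. Per 1000000 unique tags the medians at the sites were 1.31 for TRα and 1.75 for RXR. The RXR peaks at the sites held a median of 28 tags (28 to 29), with quartiles of 22 and 38 and a range from 10 to 250. Their median score was 62.1 (60.9 to 63.4), their median fold 8.10 (7.96 to 8.21) and their median width 790 bp (777 to 800). Sites of all 3 lists carried more RXR, with medians of 40 tags (39 to 42) and a fold of 9.71 (9.58 to 9.92). The 1984 sites met 1982 RXR peaks, which are 28.5% of the 6953 RXR peaks on chromosomes 1 to 19 (27.5 to 29.6). In 2 cases a single RXR peak held 2 sites, and no site met more than 1 RXR peak.

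The share of TRα peaks that belonged to this class was highest below the top of the list. From the lowest to the highest TRα score decile it was 9.26% in decile 1, 24.8% in decile 5 and 52.3% in decile 8 (48.6 to 56.02), then 46.2% in decile 9 and 27.8% in decile 10 (24.6 to 31.2). In decile 10 the peaks of all 3 lists made up 71.1% (67.6 to 74.3), and in decile 8 they made up 25.5%. Peaks with neither partner went the other way, from 86.0% in decile 1 to 0.434% in decile 10. Seen from RXR the profile had the same shape. The sites took 11.6% of RXR peaks in decile 1 of the RXR score, 49.2% in decile 8 (45.5 to 52.9), 47.8% in decile 9 and 28.4% in decile 10 (25.2 to 31.9).

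**Figure D1:**
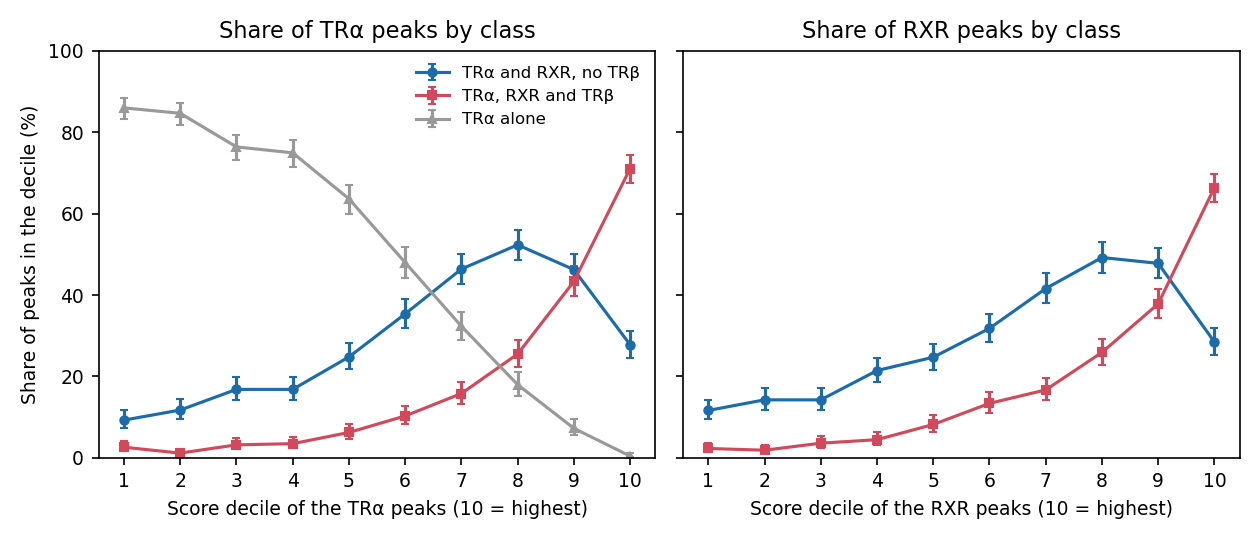
Share of TRα peaks (left) and RXR peaks (right) on chromosomes 1 to 19 in each class, by score decile of the list (horizontal axis, 10 is the highest), as percent of the peaks in the decile (vertical axis) with 95% Wilson intervals as bars. Blue circles, TRα and RXR without TRβ, peak in decile 8 at 52.3% (left) and 49.2% (right), whereas red squares, sites of all 3 lists, are highest in decile 10. Grey triangles are TRα peaks with neither partner, and classes not drawn make up the rest.

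Among TRα peaks with RXR, those without TRβ were 1984 of 3245, or 61.1% (59.5 to 62.8). This share depended on the number of TRα tags. It was 72.9% (65.7 to 79.1) at peaks of 10 to 14 tags, 79.7% (75.5 to 83.2) at 15 to 19 tags, and 71.0% (66.8 to 74.8) at 25 to 29 tags. It was lower at stronger peaks, with 43.6% (39.7 to 47.6) at 40 to 59 tags and 6.41% (2.77 to 14.1) at peaks of 100 or more tags, where 5 of 78 had no TRβ peak. Where TRβ was present, the tags of the overlapping TRβ peak with the most tags are given by TRα strength. For sites of 25 to 29 TRα tags this TRβ peak held a median of 12 tags (11 to 14) with a first quartile of 9. All TRβ peaks of the list, with no such choice, had a median of 8 tags. The lowest value on the chromosomes used was 6. TRβ and TRα tags cannot be compared directly, since TRβ peaks were narrower, with list medians of 168 bp against 559 bp. At 60 to 99 TRα tags the TRβ median was 20 tags (18 to 22). How many sites without a TRβ peak held TRβ tags below the calling limit is not known from the lists.

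Of the 500 best-scoring TRα peaks, 455 lay on chromosomes 1 to 19 and 105 of these belonged to the class (23.1%, 19.4 to 27.2). Of the 1000 best it was 295 of 929 (31.8%, 28.8 to 34.8), and over all TRα peaks 28.7%. Membership in the 500 best TRα peaks and, by the partner, in the 500 best RXR peaks was found for 41 sites, or 2.07% of sites (1.53 to 2.79), against 235 of 1261 sites of all 3 lists (18.6%, 16.6 to 20.9). A TRα score of at least 200 was reached by 31 sites and of at least 100 by 392 sites, and 431 sites (21.7%, 19.96 to 23.6) scored under 50, against 43.3% of all TRα peaks on these chromosomes (42.2 to 44.5).

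Positions are given on the mouse build mm9. Because no genome or annotation of that build was used here, the sites are given without genes, exon or intron positions or DNA sequence. The best-scoring site was chr3:52489447-52490214, 768 bp wide, with 100 TRα tags and 95 RXR tags. Its folds were 16.9 for TRα and 13.6 for RXR, the summits lay 5 bp apart, and the nearest TRβ peak was 37.3 kb away with 6 tags. The next, chr5:104809529-104809957, held 54 TRα and 33 RXR tags in 429 bp and had the highest TRα fold of all sites, 24.98, with its nearest TRβ peak 17.0 kb away. The third, chr9:63403201-63404668, held 158 TRα and 138 RXR tags over 1468 bp, with a TRα fold of 8.13, below the median of the sites, and was also the best-scoring site by RXR, ranked 45 in that list. All 3 had an RXR summit within 24 bp of the TRα summit.

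The remaining sites among the 10 with the highest TRα score carried RXR in varied amounts, given as tags not scaled for library depth. Sites with RXR tags close to or above TRα tags were chr1:52859461-52860314 (88 TRα, 90 RXR), chr11:3802588-3803571 (99 and 101) and chr16:91870333-91870860 (60 and 64). RXR tags were lower than TRα tags at chr17:29273028-29273752 (79 TRα, 43 RXR), chr17:16204602-16205278 (66 and 46), chr5:139170194-139171081 (95 and 76) and chr6:83547954-83548555 (60 and 31). Over the 10 sites the TRα rank ran from 45 to 130 and the RXR rank from 45 to 1297. Summits lay 1 to 56 bp apart, with a median of 19 bp. The nearest TRβ peak was 17.0 to 666 kb away (median 69.8 kb), so none of the 10 had a called TRβ peak within 10 kb. For chr17:29273028-29273752 the nearest TRβ peak was the farthest, at 666 kb. Whether these sites held TRβ tags below the calling limit is not known.

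The sites with the highest RXR score outside those 10 were strong in TRα as well. The first was chr10:66416548-66417932, with 135 TRα and 141 RXR tags, ranked 551 by TRα and 70 by RXR. At chr4:149260740-149261475 there were 63 TRα and 77 RXR tags, and at chr10:3223501-3224339 there were 70 and 80, with TRα ranks of 316 and 205. The last, chr1:147417060-147417718 and chr4:19238133-19238883, held 48 and 51 TRα tags with 49 and 61 RXR tags. Their RXR ranks were 92 and 144, against TRα ranks of 320 and 789.

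Tags of the receptors were compared after scaling to tags per 1000000 unique tags of each library. RXR exceeded TRα at 1604 of the 1984 sites, or 80.8% (79.1 to 82.5). Over all 1984 sites the median of RXR over TRα was 1.32-fold (1.29 to 1.34), a log2 ratio of TRα over RXR of -0.40 (-0.42 to -0.37). Over all 3245 TRα peaks with RXR, which include the sites, the median was 1.29-fold (1.27 to 1.30). At sites of all 3 lists it was 1.23-fold (1.22 to 1.27), a log2 ratio of -0.30 (-0.35 to -0.28). The intervals of these 2 classes are apart, which is not a test. RXR peaks were wider than TRα peaks at 79.6% of sites. Per bp of peak width RXR exceeded TRα at 1124 sites (56.7%, 54.5 to 58.8), with a log2 ratio of -0.058 (-0.077 to -0.037). For sites of all 3 lists the log2 ratio per bp was -0.020 (-0.048 to 0.013). A ratio of at least 2-fold with RXR higher was found at 200 sites (10.1%), against 9.24% of all 3245 pairs, and with TRα higher at 5 sites (0.252%), against 0.185% of all pairs. Both shares were near those over all pairs, of which the sites themselves are a part.

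**Figure D2:**
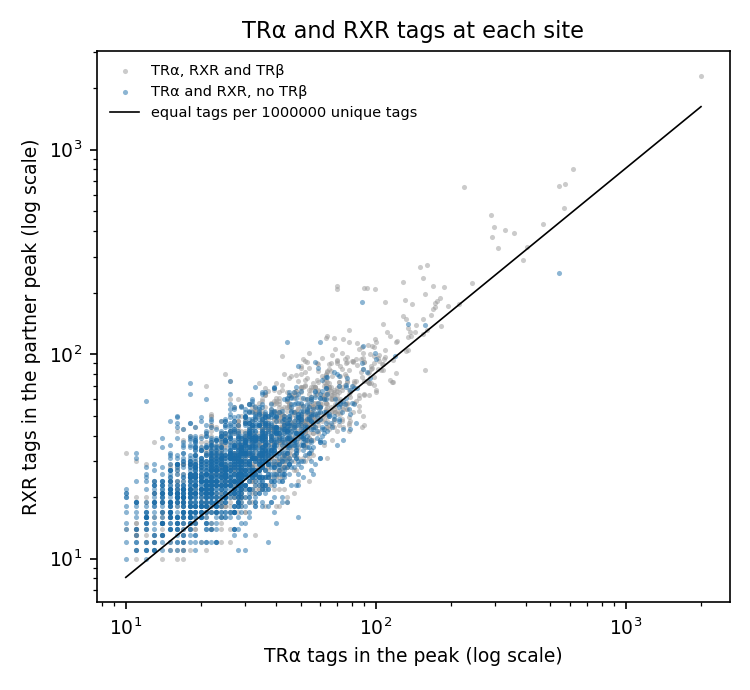
Tags in the TRα peak (horizontal axis, log scale) against tags in the partner RXR peak (vertical axis, log scale), 1 point per site, blue for sites without TRβ and grey for sites of all 3 lists. The line marks equal tags per 1000000 unique tags, and 80.8% of blue points lie above it. Tags are not divided by peak width here, and per bp the share is 56.7%.

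TRα and RXR peaks differed in width at most of the sites at the extremes of this ratio. Most TRα over RXR was found at chr12:78097091-78097940, with 37 TRα tags in 850 bp and 12 RXR tags in 415 bp, a log2 ratio of 1.32. Next came chr10:65126574-65128016 (49 and 16 tags, 1.31), chr4:146717386-146718086 (30 and 11, 1.14), chr7:109632242-109632764 (40 and 15, 1.11) and chr18:79223620-79224148 (28 and 11, 1.04). Of these, chr7:109632242-109632764 stood out by its TRα fold of 17.7 and TRα rank of 291, with an RXR score of 40.8 near the lower limit.

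Least TRα over RXR was found at chr14:76263397-76263838, with 12 TRα and 59 RXR tags, a log2 ratio of -2.60. This was a strong RXR peak, ranked 95, with a weak TRα peak ranked 5315. The others were chr4:144589554-144590080 (18 and 72 tags, -2.30), chr19:4027504-4027944 (18 and 64, -2.13), chr1:11055252-11055696 (15 and 47, -1.95) and chr14:51819213-51819615 (16 and 50, -1.95). At the last pair a TRβ peak lay 363 and 262 bp from the TRα peak. Their RXR peaks were 1449 and 1278 bp wide and reached past the TRα peaks of 445 and 403 bp.

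TRα and RXR summits lay close together at most sites. The median distance was 30 bp (28 to 31), with quartiles of 13 and 54 bp. Summits were within 50 bp at 72.9% of sites (70.9 to 74.8) and within 200 bp at 95.8% (94.8 to 96.6). The TRα peak lay wholly inside the RXR peak at 1073 sites (54.1%, 51.9 to 56.3), and the reverse held at 150 sites. At sites of all 3 lists the median distance was 19 bp (17 to 21), and 82.2% of summits were within 50 bp (79.9 to 84.2).

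Sites without TRβ were also set against sites of all 3 lists at similar numbers of TRα tags, in 8 classes. Each class is a range of tags, and the highest are wide (40 to 59, 60 to 99, and 100 or more). Whether TRα tags differed between the compared sites inside a class was not examined. Median TRα fold was lower without TRβ in 8 of 8 classes, and the intervals of the medians were apart in 6. The class of 100 or more tags had too few sites without TRβ for an interval. Intervals that are apart describe sites of these single libraries, grouped by the peak calls themselves, and are not a test. At 20 to 24 tags median TRα fold was 7.99 (7.67 to 8.22) without and 9.53 (8.99 to 9.91) with TRβ. At 40 to 59 tags it was 10.2 (9.77 to 10.8) against 11.4 (11.04 to 11.7). RXR fold followed, lower without TRβ in 7 of 8 classes with intervals apart in 7, for instance 7.72 (7.56 to 7.95) against 9.14 (8.58 to 9.58) at 20 to 24 TRα tags. Within classes of TRα tags, median fold was thus lower at sites without a TRβ peak in C17.2b, for TRα in 8 classes and for RXR in 7. RXR tags were not matched, so RXR fold was not compared at equal RXR tags. The single class with the opposite order for RXR fold, 100 or more tags, held 5 sites without TRβ.

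The width of the TRα peak and the summit distance were compared in the same classes. At equal tags a wider peak holds fewer tags per bp, so width is not independent of fold. As above, intervals that are apart are not a test. TRα peaks without TRβ were wider in 8 of 8 classes of tags, with intervals apart in 3. For 15 to 19 tags the medians were 504 bp (496 to 514) against 446 bp (420 to 478). Summit distance was larger in 8 of 8 classes, and intervals were apart in 2, both among peaks of fewer than 20 tags. At 10 to 14 tags the median was 28 bp (24 to 37) without TRβ and 3 bp (2 to 8) with TRβ, whereas at 40 to 59 tags it was 23 bp (18 to 28) against 20 bp (17 to 23). RXR tags were lower without TRβ in 5 classes and higher in 3, and intervals were apart in 2. Both of these had lower RXR without TRβ. Medians were 41 (40 to 43) against 46 (44 to 47) at 40 to 59 TRα tags and 57 (52 to 61) against 66 (63 to 70) at 60 to 99. Both are wide classes, inside which TRα tags were not matched.

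**Figure D3:**
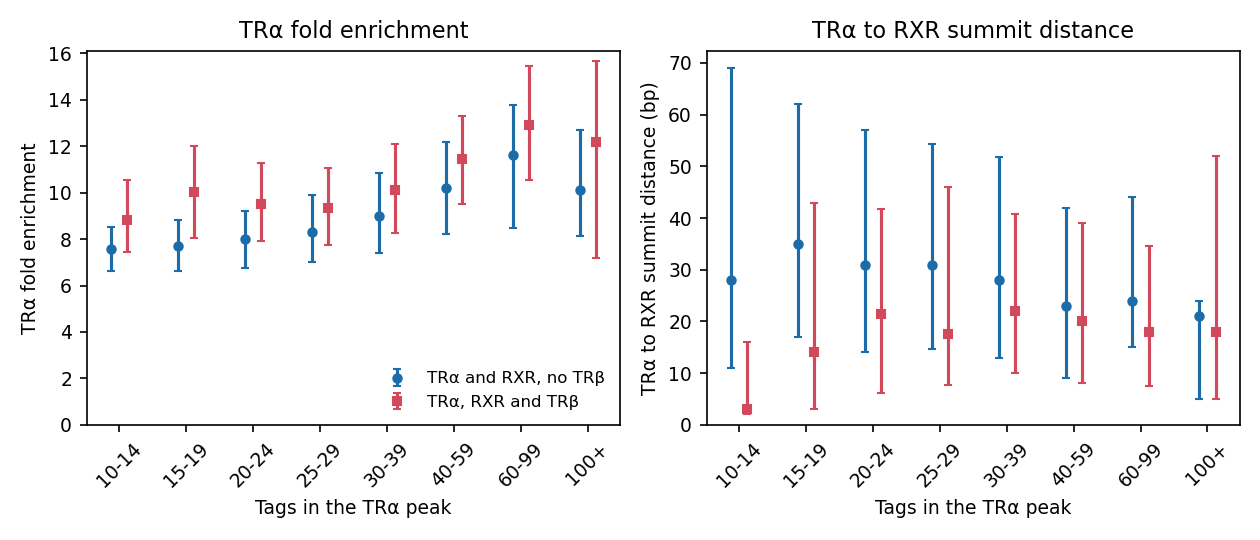
TRα fold enrichment (left) and distance between TRα and RXR summits in bp (right) by the number of tags in the TRα peak (horizontal axis), as medians with quartiles as bars, for sites without TRβ (blue circles) and sites of all 3 lists (red squares). Blue medians of fold lie below the red ones in all 8 classes, and the summit distances differ most in the lowest class, with medians of 28 and 3 bp.

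Tags of TRα and RXR at the 1984 sites had a Spearman correlation of 0.659, and their scores one of 0.472. At the 1261 sites of all 3 lists the values were 0.825 and 0.701. These correlations run across sites within a library pair and describe it. The points share the libraries and their depth, and the range of tags was narrower at sites without TRβ, where quartiles were 20 and 35 TRα tags against 27 and 56.

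TRβ peaks lay within 1 kb of few sites but within 100 kb of most. Gaps from random positions were not computed, so whether these gaps are short or long for the genome is not known. The gap to the nearest TRβ peak had a median of 68.2 kb (62.9 to 73.0), with quartiles of 26.2 and 157 kb. Against the better-scoring 50% of TRβ peaks alone, with sites chosen by the same list, the median was 147 kb. A TRβ peak lay within 1 kb of 23 sites (1.16%, 0.774 to 1.73), within 10 kb of 218 sites (10.99%, 9.69 to 12.4) and within 100 kb of 61.9% (59.7 to 64.0). TRα peaks with neither partner, which also lack TRβ by definition, had a median gap of 80.9 kb (77.2 to 85.2). They had a TRβ peak within 10 kb in 9.73% of cases (8.78 to 10.8) and within 100 kb in 57.1% (55.5 to 58.8). The gaps thus differed little within 10 kb and were shorter at sites with RXR at larger distances.

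**Figure D4:**
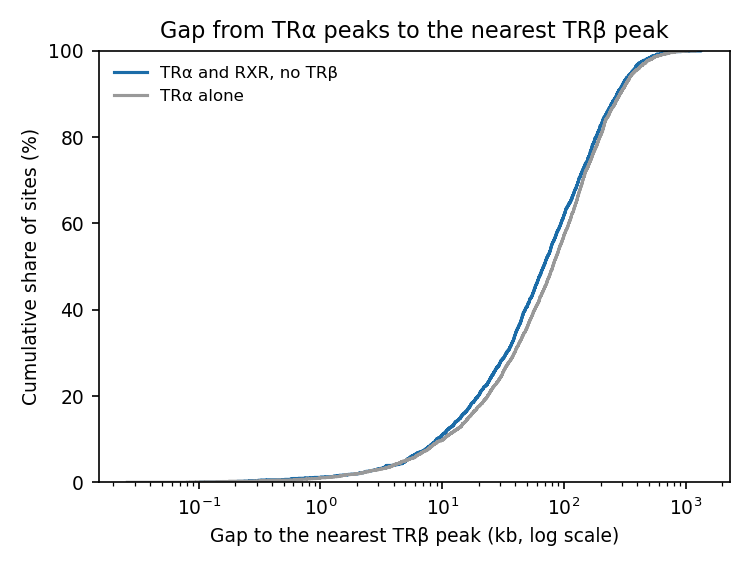
Cumulative share of sites in percent (vertical axis) by the gap to the nearest TRβ peak in kb (horizontal axis, log scale), for TRα and RXR sites without TRβ (blue) and TRα peaks with neither partner (grey). Median gaps are 68.2 and 80.9 kb, and 1.16% of the blue sites have a TRβ peak within 1 kb.

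The rule left a few sites whose assignment turned on small distances. Of the 23 sites with a TRβ peak within 1 kb, 8 had a TRβ peak that shared a base with their own RXR peak. The shortest gaps to TRβ were 104 bp at chr6:136854853-136855344, 141 bp at chr5:106123489-106123965 and 194 bp at chr10:13703403-13703979. These held 21, 26 and 26 TRα tags and 60, 74 and 64 RXR tags, and the TRβ peaks beside them held 14, 6 and 9 tags. In all 3 the RXR peak was wide, at 1412, 1623 and 1238 bp. Just outside the rule, chr2:113804080-113804788 shared at most 13 bp with a TRβ peak and chr4:102242483-102243147 shared 23 bp.

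On the RXR side few sites were marginal. The least overlap was 13 bp at chr13:52059764-52060870 and 18 bp at chr16:33178687-33179188, with summits 827 and 509 bp apart. These were the only 2 sites with under 20% of the TRα peak inside the RXR peak, and the third smallest overlap was 167 bp. The TRα peak without TRβ that missed an RXR peak most narrowly was chr13:56684109-56684667, by 144 bp.

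Sites were spread over the genome and seldom adjoined each other. They fell into 1116 bins of 1 Mb, of which 610 held a single site and 32 held 5 or more. Another site of the class lay within 10 kb of 109 sites (5.49%, 4.57 to 6.59), which formed 54 groups. The one group of 3 lay at chr2:50205854-50221108, with 21, 19 and 16 TRα tags. A neighbour of the same class within 5 kb was found for 1.81% of sites (1.31 to 2.50), for 4.20% of sites of all 3 lists (3.23 to 5.46) and for 1.47% of TRα peaks with neither partner (1.12 to 1.94). These shares rise with the size of a class, and the classes held 1984, 1261 and 3392 peaks.

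The megabase with the most sites was chromosome 5 from 139 to 140 Mb, with 9. Of its 10 TRα peaks 9 belonged to the class and 1 was a site of all 3 lists, and the bin held 13 RXR and 6 TRβ peaks. The strongest of the 9 was chr5:139170194-139171081, also among the 10 best, and the next was chr5:139446474-139447145 with 50 TRα and 48 RXR tags. The remaining 7 had 23 to 39 TRα tags and 17 to 47 RXR tags. TRβ peaks were interspersed rather than absent, with gaps of 2.08, 2.92 and 3.46 kb at 3 of the 9 sites. The next most crowded bin, chromosome 2 from 128 to 129 Mb, held 7 sites among 15 TRα peaks, of which 7 had neither partner.

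The share of the class varied between chromosomes. As a share of TRα peaks the class ranged from 21.5% on chromosome 8 (17.5 to 26.2) and 22.6% on chromosome 10 (19.1 to 26.7) to 35.1% on chromosome 13 (29.8 to 40.8). Among TRα peaks with RXR, the share without TRβ was lowest on chromosome 8 at 49.3% (41.4 to 57.3) and chromosome 19 at 50.5% (41.1 to 59.9). It was highest on chromosome 13 at 74.4% (66.4 to 81.1) and chromosome 12 at 69.2% (61.9 to 75.7). On chromosome 13, 99 sites stood beside 34 sites of all 3 lists, and on chromosome 8, 73 stood beside 75. Chromosomes 8 and 13 were the lowest and highest by both measures, which count the same sites, and were picked after the values were seen. A difference between chromosomes was not tested.

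**Figure D5:**
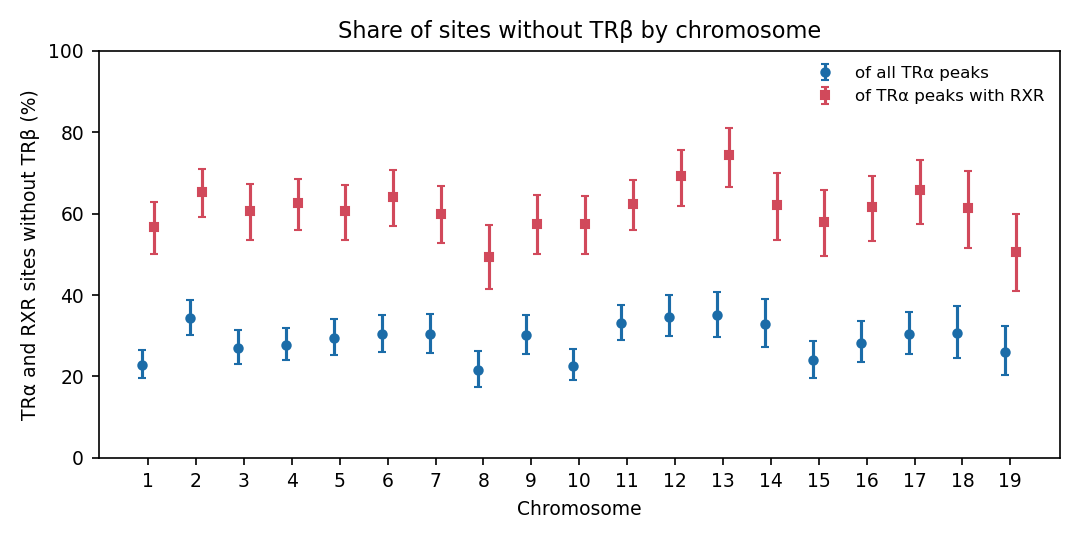
TRα and RXR sites without TRβ on each chromosome (horizontal axis) as percent of all TRα peaks (blue circles) and of TRα peaks with RXR (red squares), with 95% Wilson intervals as bars. Chromosome 13 is highest by both measures at 35.1% and 74.4%, and chromosome 8 lowest at 21.5% and 49.3%.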

How the data were processed

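The submitters' processing notes name CASAVA 1.7, Bowtie 0.12.7 and the mouse build mm9. MACS (version not given in the sources used here) called each library's peaks without a control, per the file headers, with a p-value cutoff of 0.0001, band widths of 500 (TRα, TRβ) and 300 bp (RXR), and fragment shifts d of 139 (TRα), 56 (TRβ) and 174 bp (RXR). Without a control, no region that gathers tags in every pull-down could be taken out.

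The authors deposited tag counts as whole numbers without normalization. Scores are as deposited, on a -10 times log10 p-value scale. Fold enrichment, also deposited by the authors, is a ratio, read here as tags over background around the peak in the same library. Starts of RXR peaks count from 0, as their lengths show, and 1 bp was added. The RXR partner of a site was the overlapping peak with the closest summit.

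Python 3.11.15 was used with numpy 2.4.6, pandas 2.3.3, scipy 1.17.1 and matplotlib 3.10.9. Class assignment, gaps and median intervals were tested on simulated data. Named sites are those with the 10 highest TRα scores, the 5 highest and 5 lowest TRα over RXR ratios, the 5 highest RXR scores not yet named, and those nearest to the thresholds of the rule. The most crowded megabases, the group of 3 sites and the 2 broadest sites were chosen after their values were seen. The members and lists were chosen with earlier results of these data known. Motifs, start sites and gene lists were planned and not run, as no genome of this build was used here.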

Additional observations from a re-analysis of the deposited data

How the results depend on the processing

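For 15 results under 11 settings, 151 alternative values were computed. Of these, 119 stayed within the interval of the first value (for the number of sites, within 1.5 times) and 32 left it. The log2 ratio, the only result that can be negative, kept its sign under all settings. The number of sites ran from 1366 (better-scoring 50% of RXR) to 2137 (better-scoring 50% of TRβ), against 1984. Windows of 500 bp, no TRβ peak within 1 kb, RXR starts as deposited and, both added after seeing the data, no TRβ peak in the RXR peak either and removal of 20 bins of 1 Mb with 15 or more peaks moved none of the 15. With a reciprocal overlap of 50% the share of TRα peaks was 26.7% and the median log2 ratio of TRα over RXR -0.36. Requiring no TRβ peak within 10 kb drops the sites with the shortest gaps, which by construction lowers shares and lengthens the gap. The share was then 25.6%, the decile 8 share 45.8% and the median gap to TRβ 80.7 kb. With the better-scoring 50% of TRβ these were 31.0%, 56.2% and 147 kb, with 33.3% in decile 10, since fewer TRβ peaks remain. The better-scoring 50% of TRα gave a share of 41.8%, medians of 30 TRα tags, 650 bp, score 80.0 and fold 9.22, for RXR 31 tags, 806 bp, score 67.6 and fold 8.48, a summit distance of 27 bp and a log2 ratio of -0.30. The better-scoring 50% of RXR gave 19.8%, 40.6% in decile 8, medians of 29 TRα tags, 639 bp, score 75.5 and fold 8.84, for RXR 32 tags, 807 bp, score 73.1 and fold 8.86, and a log2 ratio of -0.44. Both drop weak peaks by construction. Per bp of peak width, added after seeing the data, the log2 ratio was -0.058. Other causes were not tested. Leaving out a library was not possible with 1 per group, and settings for motifs, start sites and gene lists were not run. No paired analysis was possible because the design has a single library for each group.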

Other observations

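A small number of sites were broad and shallow. The widest, chr2:77857864-77865260, spanned 7397 bp with 541 TRα tags, the most of any site, yet its TRα fold was 2.95, the lowest of any site, and its TRα score was 45.7. Its RXR peak covered 3329 bp with 250 tags and a fold of 3.53. The next widest, chr1:173454955-173456973, spanned 2019 bp with 89 TRα and 110 RXR tags and folds of 3.97 and 3.46. Both had a TRβ peak nearby, 7.53 kb away with 44 tags for the former and 4.39 kb away with 40 tags for the latter. A TRα fold under 5 was found at 52 sites (2.62%, Wilson interval 2.00 to 3.42). No control library entered the calling, and whether such regions collect tags in any pull-down was not tested.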
